A study of Drosophila melanogaster with 7 samples.

Results

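Transcript levels of 10 genes of the insulin and TOR pathways were followed in sorted ovarian cells of Drosophila melanogaster after knockdown of Atx2, the fly Ataxin-2 gene, which encodes an RNA-binding protein. The genes were InR, chico, Akt, foxo, Tsc1, gig, Tor, raptor, S6k and Thor. They were picked by name out of 13771 listed genes as nutrient signalling genes that control germline growth, and their 27 transcripts were picked by FlyBase gene number out of 29939 listed transcripts. The symbol matched for 9 of the genes. Tor is listed under its synonym mTor (FBgn0021796) and is not the gene tor, which encodes Torso. All 10 genes passed the filter on low counts, as did 10514 genes in all, and 23 of the 27 transcripts passed it, as did 21728 transcripts in all.

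There were 4 Atx2 KD libraries and 3 Control KD libraries. All 7 came from ovaries that expressed a small hairpin RNA (shRNA) under nos-GAL4::VP16, a germline driver, and carried bamP-GFP, a green fluorescent reporter of the bam promoter. The Atx2 KD hairpin was BDSC_36114, and the Control KD hairpin, BDSC_35785, targets mCherry, a fluorescent protein absent from flies. Ovaries of both groups were digested with collagenase and elastase at 37 °C for 30 min, live GFP-positive cells were sorted by flow cytometry with propidium iodide, and libraries were made from 18 ng of rRNA-depleted RNA with no poly(A) selection. The age of the flies is not given in the sources used here, and no label says that the libraries came from separate flies or sorts, so p-values measure only the spread between these samples. The measurement is of bulk RNA, in which fewer cells of a type and less RNA per cell cannot be told apart.

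In flies, insulin-like peptides bind the receptor InR, and the adaptor Chico passes the signal through phosphoinositide 3-kinase to the kinase Akt, which holds the transcription factor Foxo out of the nucleus. Tsc1 and Gigas, the fly Tsc2, form a complex that restrains Tor complex 1 (TORC1), a kinase complex of Tor and Raptor. TORC1 phosphorylates S6k and Thor, the fly 4E-BP, which binds the cap-binding protein eIF4E1 and so limits translation. In the ovary these pathways set the rate of germline stem cell division and cyst growth according to diet.

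The libraries held 65262399 to 101810003 estimated counts. Atx2 itself stood at 245, 211, 269 and 209 CPM (a gene's count scaled to its library's total) in Atx2 KD replicates 1 to 4 and at 391, 445 and 424 CPM in Control KD replicates 1 to 3. It fell to 55.5% of the control level (log2 fold change -0.85 ± 0.10 SE, edgeR adjusted p = 0.00166). The sorted cells are labelled germ cell. The germline gene vas stood at 249.7 ± 33.1 (SD, n = 4) and 259 ± 37.9 (SD, n = 3) TPM (counts scaled for transcript length as well as library total) in Atx2 KD and Control KD, and the follicle cell gene tj at 272 and 244 TPM, so both germline and somatic transcripts were present. Of 8 germline markers, nos, otu and orb were lower and bgcn higher in Atx2 KD at adjusted p under 0.05 (edgeR). Summed TPM over all 8 was 799.9 to 1101 in Atx2 KD and 1060 to 1567 in Control KD. Over 8 follicle cell and niche markers it was 456 to 637 and 388 to 516, with Fas3 and eya higher and en under 1 TPM. Over 7 eggshell and yolk genes it was 4595 to 23385 and 30623 to 58758. All 7 had a log2 fold change below 0 (-2.57 to -0.94), and 3 of them passed the edgeR test (adjusted p under 0.05). All 4 muscle markers rose (summed TPM 93.0 to 145 in Atx2 KD against 54.4 to 78.8 in Control KD). Of 4 hemocyte markers Ppn rose (97.1 to 194 against 47.1 to 71.0 TPM), and the list summed to 121 to 266 against 54.6 to 99.1. Of 4 fat body markers apolpp rose (4.39 to 6.71 against 1.69 to 2.68 TPM). That list summed to 62.6 to 87.5 against 44.1 to 66.1, with Lsp2 and Fbp1 under 1 TPM. Most of that sum was FASN1, which did not pass (edgeR adjusted p = 0.142). None of 13 heat shock genes passed the test (summed TPM 6107 to 12676 against 6806 to 12127). The part of these differences in the results on the pathway genes was not tested.

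Of the 10 genes, Thor fell with Atx2 KD, none rose, and 9 did not pass the test (edgeR quasi-likelihood test, adjusted p under 0.05 over all tested genes). Over all 10514 tested genes the test called 13.3%, with 5.61% higher and 7.67% lower in Atx2 KD, so 1 gene of 10 is near the background share. The split over all genes was 590 higher and 806 lower with TMM scaling, 811 and 600 with upper-quartile scaling, and 688 and 438 with limma on log2(TPM + 1). At an unadjusted p under 0.05 there were 4 genes, Akt, Tsc1, S6k and Thor, all lower, against 30.6% of all tested genes (14.2% higher and 16.3% lower). The same 4 genes had CPM values that did not overlap between the groups, against 27.4% of all tested genes. In TPM, 3 of them (Tsc1, S6k and Thor) did not overlap, against 24.8%. The median log2 fold change of the 10 genes was -0.17, with a range of -0.48 to 0.17, beside a median of 0.01 and quartiles of -0.19 and 0.24 over all tested genes. The fold change was below 0 for 8 genes and above 0 for Tor and raptor.

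**Figure D1:**
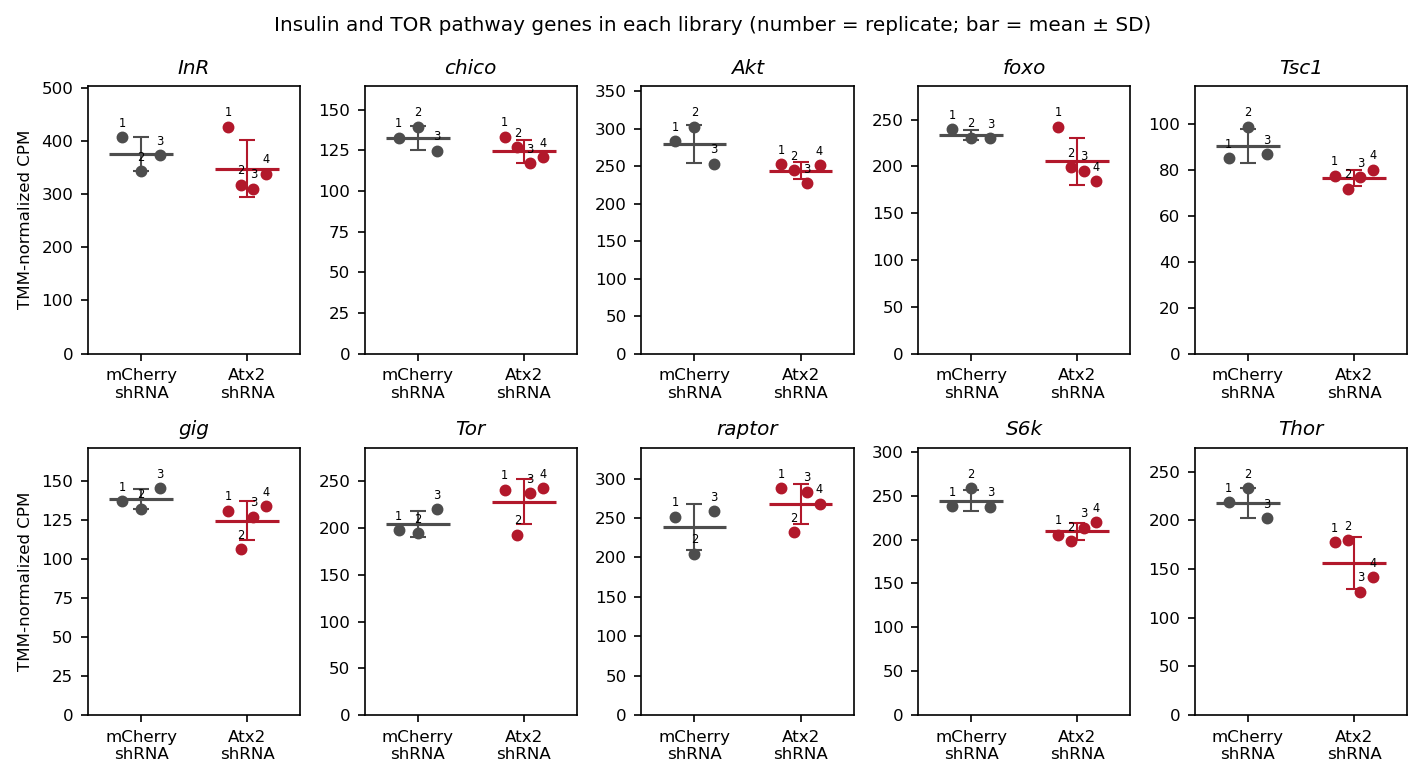
TMM-normalized CPM (y axis) of the 10 genes in each library, with 1 panel per gene numbered points for the 4 Atx2 KD and 3 Control KD libraries, and bars for the mean and SD. All 4 Atx2 KD points lie below the Control KD points for Thor, S6k and Tsc1, and for Akt by a narrow margin.

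**Figure D2:**
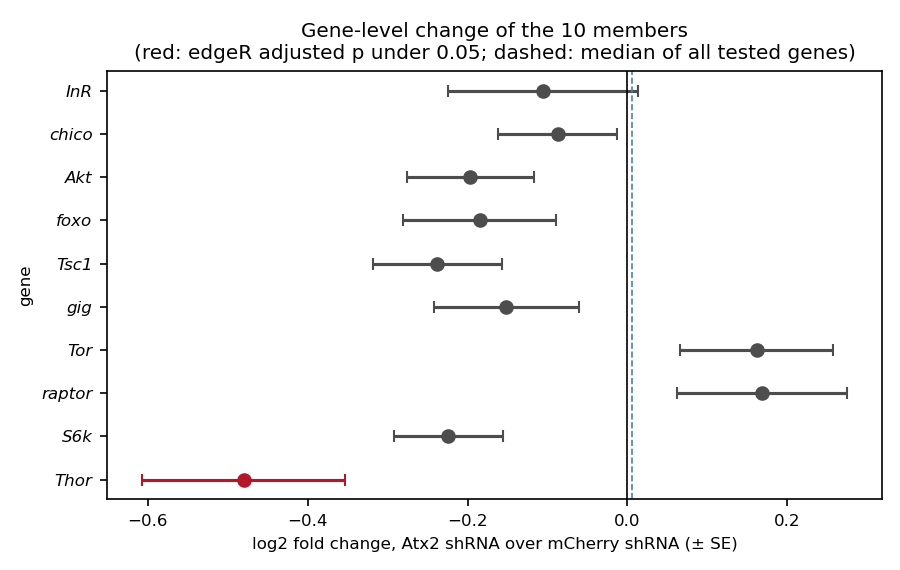
Log2 fold change of each of the 10 genes (x axis, Atx2 shRNA over mCherry shRNA), with bars for the standard error, in red where the edgeR adjusted p was under 0.05. Thor lies lowest at -0.48, Tor and raptor lie above 0, and the dashed line marks the median of all tested genes.

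Levels can be set against each other per unit of transcript length, in TPM. In Control KD the mean TPM ran from Thor at 508 through Akt at 97.9, foxo at 84.5, S6k at 82.0, chico at 53.4, InR at 45.2, raptor at 41.8, Tor at 31.5 and gig at 29.6 to Tsc1 at 29.5. In Atx2 KD it ran from Thor at 376 through Akt at 87.6, foxo at 75.8, S6k at 72.0, chico at 53.4, raptor at 47.8, InR at 44.2, Tor at 36.7 and gig at 27.5 to Tsc1 at 25.8. Thor stood apart from Akt, and S6k from chico, with no overlap of their libraries in either group. Chico and InR did not overlap in Control KD but did in Atx2 KD, and the other neighbours in the order overlapped in both groups. Compared within each library, Akt lay above foxo and Tor above gig throughout. The order of foxo and S6k, and of gig and Tsc1, varied between libraries of both groups. The inhibitor of translation was thus the most abundant of the 10 transcripts per length, and the genes of the Tsc complex the least.

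InR, the insulin receptor gene (FBgn0283499, arm 3R, 21570248 to 21619321, minus strand, in the BDGP6.54 annotation), stood at 426, 317, 309.8 and 338 CPM in Atx2 KD and at 407, 343 and 373 CPM in Control KD. The groups overlapped, and the highest of all values was Atx2 KD replicate 1. The log2 fold change was -0.11 ± 0.12 SE (adjusted p = 0.588). With the eggshell and yolk level of each library as a covariate in the edgeR fit it was -0.48 ± 0.12 SE (adjusted p = 0.0654). Its main transcripts, FBtr0084121 and FBtr0290230, start at 21619036 and 21619321 and encode the same 2144 residues. FBtr0084121 held 68.5% ± 3.15 (SD, n = 4) of InR counts in Atx2 KD and 67.1% ± 2.28 (SD, n = 3) in Control KD.

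chico, the adaptor that couples InR to phosphoinositide 3-kinase (FBgn0024248, arm 2L, 10242512 to 10247078, minus strand), stood at 133, 127, 117 and 121 CPM in Atx2 KD and at 133, 139 and 125 CPM in Control KD. The groups overlapped (log2 fold change -0.09 ± 0.07 SE, adjusted p = 0.466). Transcript FBtr0080088 held 87.6% ± 1.41 (SD, n = 4) and 89.2% ± 2.53 (SD, n = 3) of its counts. The annotation places an antisense RNA over 380 exon bases of chico, and since the use of strand in counting is not given in the sources used here, reads of the pair may not be told apart.

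Akt, the kinase that InR signalling activates (FBgn0010379, arm 3R, 16099228 to 16105670, plus strand), stood at 253.0, 244, 228 and 251 CPM in Atx2 KD and at 283, 303 and 253.4 CPM in Control KD. All Atx2 KD values were lower, though Atx2 KD replicate 1 and Control KD replicate 3 were almost level. The log2 fold change was -0.20 ± 0.08 SE and did not pass (adjusted p = 0.132). In a fit blocked on replicate number, the log2 fold change was -0.21 ± 0.06 SE and passed (adjusted p = 0.0392). The titles do not state that same-numbered libraries are pairs. The blocked fit called 3 of the 10 genes, Akt, S6k and Thor, all lower. Over all tested genes it called 28.0%, with 13.8% higher and 14.2% lower.

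foxo, the transcription factor that Akt holds inactive (FBgn0038197, arm 3R, 14056945 to 14087978, plus strand), stood at 242, 199, 195 and 184 CPM in Atx2 KD and at 239.6, 230.5 and 229.8 CPM in Control KD. Atx2 KD replicate 1 lay above all controls and the other 3 below them. The log2 fold change was -0.18 ± 0.10 SE (adjusted p = 0.226). Without Atx2 KD replicate 1 it was -0.27 ± 0.07 SE, which passed (adjusted p = 0.0438).

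Tsc1, a subunit of the complex that restrains TORC1 (FBgn0026317, arm 3R, 24130307 to 24134654, plus strand), stood at 77.4, 71.7, 76.8 and 80.0 CPM in Atx2 KD and at 85.0, 98.7 and 86.9 CPM in Control KD. Every Atx2 KD value was below every control, and the log2 fold change was -0.24 ± 0.08 SE (adjusted p = 0.0826). With DESeq2 the adjusted p was 0.0495, on the other side of the threshold. Its partner gig, the fly Tsc2 (FBgn0005198, arm 3L, 20129181 to 20139010, plus strand), stood at 131, 106, 127 and 134 CPM in Atx2 KD and at 137, 132 and 145 CPM in Control KD. The groups overlapped through Atx2 KD replicate 4 alone (log2 fold change -0.15 ± 0.09 SE, adjusted p = 0.299). The ratio of Tsc1 to gig TPM within a library was 0.944 ± 0.0606 (SD, n = 4) in Atx2 KD and 1.00 ± 0.122 (SD, n = 3) in Control KD.

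Tor, the kinase of TORC1 and TORC2 (arm 2L, 13004480 to 13013197, plus strand), stood at 241, 193, 237 and 243 CPM in Atx2 KD and at 197, 195 and 220.4 CPM in Control KD. Atx2 KD replicate 2 lay below all controls and the other 3 above them, and the log2 fold change was 0.16 ± 0.10 SE (adjusted p = 0.294). raptor, the subunit that presents substrates to TORC1 (FBgn0029840, X chromosome, 6082634 to 6090201, minus strand), stood at 288, 232, 283 and 268 CPM in Atx2 KD and at 252, 205 and 259 CPM in Control KD. The groups overlapped through Atx2 KD replicate 2, and the log2 fold change was 0.17 ± 0.11 SE (adjusted p = 0.324). Of its exon bases, 1669 are shared with Mipp2 on the same strand and 241 lie opposite an antisense RNA, so its counts are less certain. The ratio of Tor to raptor TPM within a library was 0.767 ± 0.0247 (SD, n = 4) in Atx2 KD and 0.762 ± 0.0761 (SD, n = 3) in Control KD, and the groups overlapped. Both fold changes turned below 0 when the eggshell and yolk level of each library was a covariate (-0.022 for Tor and -0.061 for raptor).

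S6k, the ribosomal protein S6 kinase activated by TORC1 (FBgn0283472, arm 3L, 5797549 to 5810931, minus strand), stood at 206, 198, 214 and 219.6 CPM in Atx2 KD and at 238, 259 and 237 CPM in Control KD. Every Atx2 KD value was below every control. The log2 fold change was -0.22 ± 0.07 SE and did not pass (adjusted p = 0.0606). It passed with DESeq2 (adjusted p = 0.0310), which called 3 of the 10 genes (Tsc1, S6k and Thor, all lower) beside 20.4% of all genes with an adjusted p, and with the replicate block (-0.25 ± 0.07 SE, adjusted p = 0.0270).

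Thor, the 4E-BP that TORC1 inactivates (FBgn0261560, arm 2L, 3478434 to 3479612, plus strand), stood at 177, 179.6, 127 and 141 CPM in Atx2 KD and at 219, 233 and 202 CPM in Control KD. Every Atx2 KD value was below every control, and Atx2 KD replicates 3 and 4 were the lowest. Thor fell to 71.7% of the control level (156 ± 26.4 CPM, SD, n = 4, against 218 ± 15.4 CPM, SD, n = 3), a log2 fold change of -0.48 ± 0.13 SE with an adjusted p of 0.0390. With the replicate block the values were -0.45 ± 0.08 SE and 0.00445. The direction held in all 15 alternatives, between -0.55 and -0.34, but the call held in 7. It was lost with upper-quartile scaling (adjusted p = 0.0551) and on TPM (0.0608). It was lost with the eggshell and yolk covariate (0.220), where the log2 fold change was -0.51 ± 0.22 SE. It was also lost without Atx2 KD replicate 3 (0.0710) or 4 (0.0931) and without Control KD replicate 1 (0.117) or 2 (0.140).

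Thor differed between libraries of one group as well as between groups. Between same-numbered libraries 1 and 2 the mean difference in log2 CPM was -0.34, and between Atx2 KD replicates 3 and 4 and Control KD replicate 3 it was -0.60. Fitted on the libraries numbered 1 and 2 alone, the log2 fold change was -0.34 (adjusted p = 0.135). The mean log2 CPM of 13 heat shock genes was 7.46 to 8.10 in the libraries numbered 1 and 2. In those numbered 3 and 4 it was 8.59 to 8.88. Mean Thor was 7.65 and 7.26 on the same scale. The first Thor mean covers replicates 1 and 2 of both groups. The second covers Atx2 KD replicates 3 and 4 and Control KD replicate 3 alone. The group makeup of the Thor means thus differs, and Thor was lower in Atx2 KD. The part of the heat shock level in the Thor result was not tested. For S6k the 2 differences were -0.30 and -0.13, for Akt -0.24 and -0.08, and for Tsc1 -0.30 and -0.15, each larger in the libraries numbered 1 and 2.

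eIF4E1, the cap-binding protein that Thor binds (FBgn0015218, arm 3L, 9399618 to 9402460, minus strand), stood at 375, 372, 369 and 399 CPM in Atx2 KD and at 541, 545 and 512 CPM in Control KD. The groups stood far apart, and eIF4E1 fell to 71.1% of the control level (log2 fold change -0.49 ± 0.07 SE, adjusted p = 0.00272). This call held in all 15 alternatives, with adjusted p up to 0.0454. The ratio of Thor to eIF4E1 TPM within a library was 1.15, 1.13, 0.822 and 0.860 in Atx2 KD and 1.01, 1.03 and 0.957 in Control KD. The mean ratio was 0.990 ± 0.174 (SD, n = 4) and 1.00 ± 0.0395 (SD, n = 3), so the inhibitor and its target were lower by a similar factor, while the ratio spread more widely in Atx2 KD.

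**Figure D3:**
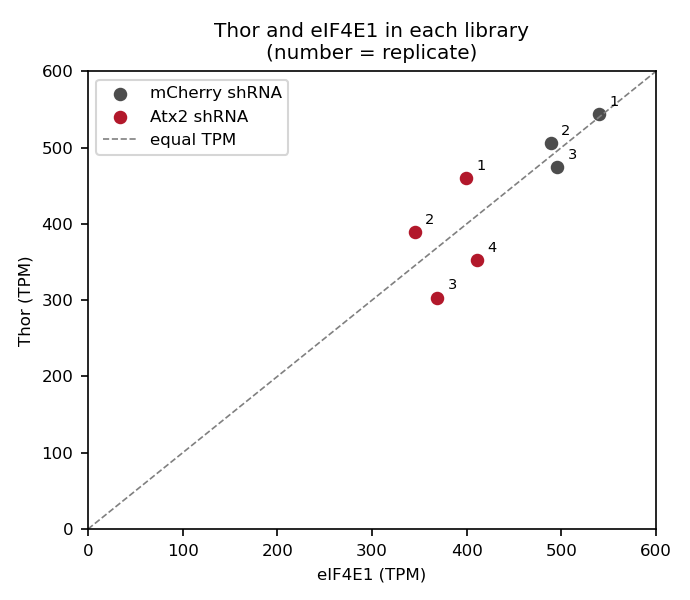
Thor TPM (y axis) against eIF4E1 TPM (x axis), with 1 point per library numbered by replicate and a dashed line where both are equal. The 3 Control KD points lie near the line at the upper right, and the 4 Atx2 KD points lie lower on both axes, replicates 1 and 2 above the line and 3 and 4 below it.

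The other genes of the pathway were taken from lists by role. Of 58 listed genes 54 were tested, and 2 fell and none rose, with a median log2 fold change of -0.07. At an unadjusted p under 0.05 there were 4 higher and 7 lower, beside the 14.2% and 16.3% of all tested genes. DESeq2 called 5 of them, beside 20.4% of all genes to which it gave an adjusted p. With the replicate block 3 rose and 8 fell, beside the 28.0% of all tested genes that it called. The 3 that rose were Lamtor2, chrb and REPTOR-BP (0.54, adjusted p = 0.000713), the last a partner of the transcription factor REPTOR, which TORC1 inhibits, named here after its value was seen.

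Among 10 ligands and secreted binding proteins 6 were tested and none passed. Ilp1, Ilp2, Ilp3 and Ilp4 were not tested, and Ilp3 was listed at 0 in every library. Ilp8, a relaxin-like peptide, had the largest fold change of this list but stood at only 0.596 to 1.79 CPM in Atx2 KD and 0.950 to 3.56 CPM in Control KD (log2 fold change -1.09 ± 0.48 SE, adjusted p = 0.161). Of 8 receptor adaptors and phosphoinositide 3-kinase branch genes none passed. Pdk1, the kinase that activates Akt and S6k, came nearest, at 435, 378, 339.9 and 335 CPM in Atx2 KD and 467, 493 and 437 CPM in Control KD. The groups did not overlap in CPM but did in TPM, with a log2 fold change of -0.32 ± 0.10 SE (adjusted p = 0.0663, or 0.0207 with the replicate block).

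Of 5 TORC1 and TORC2 partners none passed, and Rheb, the small GTPase that activates TORC1, had a log2 fold change of -0.22 ± 0.11 SE (adjusted p = 0.221). Of 17 amino acid sensing genes none passed. Lamtor2, a subunit of the lysosomal anchor of TORC1, had a log2 fold change of 0.36 ± 0.14 SE (adjusted p = 0.130, or 0.0253 with the replicate block). All 2533 of its exon bases are shared with CG30120 on the same strand, so its counts are uncertain. With the replicate block, Lamtor1, another subunit of that anchor, also passed but was lower (-0.26 ± 0.07 SE, adjusted p = 0.0243). Samtor, which binds S-adenosylmethionine, passed and was lower as well (-0.32 ± 0.10 SE, adjusted p = 0.0406). Lamtor1 and Samtor were named after their values were seen. Of 6 energy and stress genes none passed, and chrb, a stress-induced inhibitor of TORC1, had a log2 fold change of 0.22 ± 0.08 SE (adjusted p = 0.121, or 0.0378 with the replicate block).

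Of 12 downstream effectors, eIF4E1 and Mnt fell and none rose. Mnt, a transcriptional repressor that shares binding sites with the growth regulator Myc (FBgn0023215, X chromosome, 3671801 to 3701672, plus strand), stood at 256, 217, 191 and 184 CPM in Atx2 KD and at 335, 320.2 and 273 CPM in Control KD. The groups did not overlap in CPM but did in TPM, and the log2 fold change was -0.54 ± 0.12 SE (adjusted p = 0.0233). The call held in 8 of 15 alternatives. It was lost on TPM (adjusted p = 0.0600) and with the eggshell and yolk covariate (0.0550). With the libraries numbered 1 and 2 only it was lost too (0.0912). It was also lost without Atx2 KD replicate 3 (0.0610) or 4 (0.0580) and without Control KD replicate 1 (0.0964) or 2 (0.0909).

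**Figure D4:**
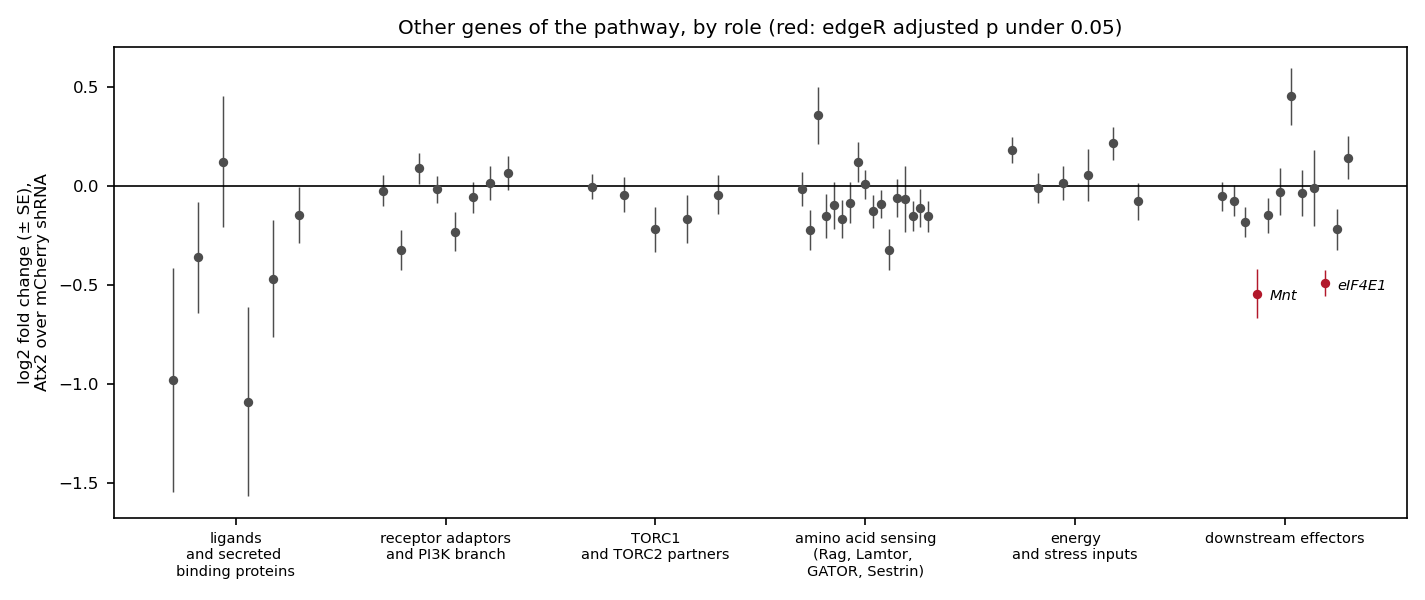
Log2 fold change with its standard error (y axis, Atx2 over mCherry shRNA) of the 54 tested pathway genes outside the 10, grouped by role along the x axis. The red points, eIF4E1 and Mnt, are the 2 genes that passed the edgeR test, and both lie below 0.

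Transcripts were then compared. Of the 23 tested transcripts of the 10 genes 1 passed, against 4.71% of all tested transcripts. It was FBtr0077114 of S6k, which fell with a log2 fold change of -0.37 ± 0.07 SE (adjusted p = 0.0345). The other S6k transcript, FBtr0333264, stood at -0.05 ± 0.08 SE (adjusted p = 0.769). Both encode the same 490 residues, and FBtr0333264 has a 3' UTR of 2881 bases where FBtr0077114 has 1482. The call on FBtr0077114 held in 2 of 10 alternatives, DESeq2 and no filter. It was lost with the replicate block (adjusted p = 0.0646) and on leaving out any 1 library (0.0557 to 0.111).

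The longer S6k transcript made up 49.7, 48.8, 48.8 and 49.6% of S6k counts in Atx2 KD and 45.4, 44.0 and 41.8% in Control KD. Its mean share was 49.2% ± 0.510 (SD, n = 4) against 43.7% ± 1.82 (SD, n = 3), with no overlap. Akt has a like pair, in which FBtr0344717 carries a 3' UTR of 2556 bases and FBtr0083227 one of 1401, with the same 530 residues. FBtr0344717 made up 34.3, 38.3, 37.3 and 35.4% of the pair in Atx2 KD and 30.5, 27.6 and 33.4% in Control KD. Again every Atx2 KD library was higher, at 36.3% ± 1.82 (SD, n = 4) against 30.5% ± 2.89 (SD, n = 3). Among 1007 transcript pairs of all genes whose 3' UTRs differ by at least 100 bases, a comparison chosen after the data had been seen, the longer share was higher without overlap in 11.6% and lower in 9.33%.

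In Tor, FBtr0080422, with 2470 residues, made up 72.7% ± 1.02 (SD, n = 4) of counts in Atx2 KD and 68.1% ± 0.720 (SD, n = 3) in Control KD. The rest was FBtr0336615, whose coding sequence is 1 codon longer. In foxo, FBtr0305052, which encodes 622 residues, made up 64.7% ± 3.89 (SD, n = 4) against 71.0% ± 1.99 (SD, n = 3), and FBtr0082886, which encodes 613, made up 34.4% and 28.1%. In all, 8 of 21 transcripts of genes with 2 or more tested transcripts had shares that did not overlap, against 18.7% over all genes. These 8 came from InR, Akt, foxo, Tor and S6k, and since the shares of a gene sum to a whole, those of S6k, Tor and foxo mirror each other or nearly so. The InR transcript among them, FBtr0290232, held only 0.493% of InR counts in Atx2 KD and 0.696% in Control KD. The shares of the main InR transcripts overlapped.

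The test of unequal transcript change (diffSpliceDGE of edgeR, Simes p) called 0 of the 8 genes with 2 or more tested transcripts, all with an adjusted p of 1.00 and none with an unadjusted p under 0.05, against 3.96% of genes. With limma on log2 transcript shares, which called 5.08% of genes, S6k (adjusted p = 0.0339) and Tor (0.0367) passed and Akt did not (0.147). The call on S6k and Tor usage therefore rests on the choice of test. In simulated data, diffSpliceDGE recovered 17.7% of genes given a transcript change of log2 1, and limma on shares 8.86%. A count of 0 of 8 thus cannot show that the transcripts of a gene changed equally. All Thor counts were assigned to FBtr0077524, and FBtr0345289, which has a shorter 5' UTR, was listed at 0 in every library. The log2 fold change of FBtr0077524 was -0.48 ± 0.14 SE in the transcript fit, where it did not pass (adjusted p = 0.0942). gig, raptor and Tsc1 were carried mostly or wholly by 1 transcript each.

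**Figure D5:**
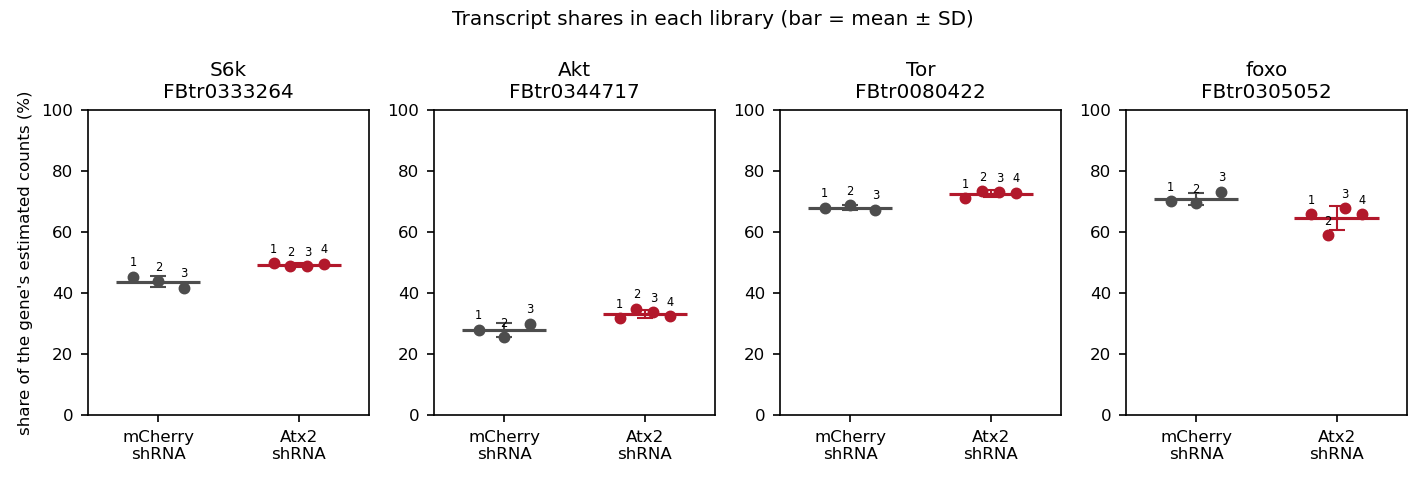
Share of the gene's estimated counts (y axis, percent) held by transcripts of S6k, Akt, Tor and foxo in each library, with bars for the mean and SD of the 4 Atx2 KD and 3 Control KD libraries. The longer S6k transcript is at 48.8 to 49.7% in Atx2 KD and 41.8 to 45.4% in Control KD, with no overlap.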

How the data were processed

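Per the labels, the authors deposited Salmon estimated counts and TPM per gene and transcript, not normalized. Per the submitters' processing notes the tools were bcl2fastq 2.20, Trim Galore 0.6.7, cutadapt 2.10 and Salmon 1.9.0. The build, annotation and use of strand are not given in the sources used here, so positions come from the BDGP6.54 annotation, matched by FlyBase ID.

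Estimated counts were rounded, filtered with filterByExpr (minimum count 10, minimum total 15), TMM-scaled and tested with the two-sided quasi-likelihood test of edgeR 4.0.16 (R 4.3.3) on all genes or all transcripts, with Benjamini-Hochberg adjustment at 0.05. The standard error is the size of the log2 fold change over the square root of F. CPM are TMM-normalized, and 3 counts correspond to 0.0303 to 0.0465 CPM (counting error only). Libraries of a group differed beyond sampling noise (chi-square per degree of freedom 45.6 to 236). Scripts were tested on simulated data. Alternatives used DESeq2 1.42.0, limma 3.58.1, other scaling and filters, a replicate block, an eggshell and yolk covariate, subsets and left-out libraries.

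Replicate numbers come from the sample titles. Deviations from group means of same-numbered libraries correlated across genes at 0.146, 0.336 and 0.519 for numbers 1, 2 and 3. Those of different-numbered libraries correlated at -0.383 to 0.157. The 0.157, between Atx2 KD replicate 2 and Control KD replicate 1, was above the 0.146 of number 1. The numbers were taken to pair the libraries, which the titles do not state. Calls made only with the replicate block rest on that assumption. The blocked contrast rests on those 3 pairs.

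The 10 genes and all lists were chosen with earlier results of these data known. The text names the 10 genes, Atx2, pathway genes that passed, the largest change in lists where none passed, transcripts that passed or held at least 20% of a gene, and the 5 genes most like Thor.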

Additional observations from a re-analysis of the deposited data

Results flagged for a closer look

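Tor stood at 193 CPM in Atx2 KD replicate 2, far from the other Atx2 KD libraries at 237 to 243 CPM. The gap to the nearest of them was 0.889 of the range of the group, above the critical value of Dixon's test for 4 samples. The 10 genes, eIF4E1 and Mnt were examined in this way, and chance alone flags about 1 group in 20.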

How the results depend on the processing

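Of the 10 genes, 8 had a fold change below 0 and Tor and raptor above 0 under every alternative except the eggshell and yolk covariate, where Tor was -0.022, raptor -0.061 and Rheb, negative otherwise, 0.046. In the same fit InR stood at -0.48 and foxo at -0.41, beside -0.11 and -0.18 in the reported fit. The eggshell and yolk covariate did not overlap between the groups, so it and the knockdown cannot be fully told apart in that fit. The causes of the changes below were not tested. The number of the 10 genes called, 1 in the reported fit, was 3 with DESeq2 (Tsc1, S6k and Thor) and 3 with the replicate block (Akt, S6k and Thor). It was 0 with upper-quartile scaling, on TPM, with the eggshell and yolk covariate and with the libraries numbered 1 and 2 only, and 0 to 2 when 1 library was left out. Over all genes, 1396 calls became 2150 with DESeq2, 2941 with the replicate block, 510 with the covariate, 627 with the libraries numbered 1 and 2, and 467 to 1454 with 1 library left out. The lowest counts came without Control KD replicate 1 (467) and 2 (469), then without Atx2 KD replicate 3 (773) and 4 (796). The other pathway genes called, 2 in the reported fit, were 5 with DESeq2, 11 with the replicate block, 1 with the covariate, 1 with the libraries numbered 1 and 2, and 1 to 3 with 1 library left out. Transcript calls, 1023, became 3316 with DESeq2, 654 with the replicate block, and 159 to 814 with 1 library left out. Genes with unequal transcript change, 202, numbered 241 with the replicate block, 259 with limma on shares and 132 to 210 with 1 library left out. FBtr0336615 of Tor ranged from -0.11 to 0.022 with 1 library left out, and was above 0 without Atx2 KD replicate 2 (0.022) or Control KD replicate 3 (0.012). The replicate block changed the calls on Akt, S6k, Pdk1, Lamtor1, Lamtor2, Samtor, chrb, REPTOR-BP, CG8089, Xxylt, CG42709 and FBtr0077114 and no other call among the named pathway genes and transcripts, Atx2 and the 5 genes most like Thor.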

Other observations

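Over the 7 libraries, the genes whose log2 CPM was most like that of Thor, among 7239 genes with a mean of at least 5 CPM, were CG8089 (Pearson r 0.997), Xxylt (0.988), CG42709 (0.987), Rbbp5 (0.986) and Ctr1A (0.985). The r values are descriptions over libraries that share the group difference and scaling. Of these 5 genes, Ctr1A, a copper transporter, passed the edgeR test (log2 fold change -0.36, adjusted p = 0.0449), a call that held in 6 of 15 alternatives. CG8089 stood at -0.41 (adjusted p = 0.0562) and Rbbp5 at -0.07 (adjusted p = 0.471).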
